A study of Drosophila melanogaster with 8 samples.

Results

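The vacuolar proton pump (V-ATPase) genes were examined in wing imaginal discs of Drosophila melanogaster larvae. The members were the rows whose FlyBase symbol starts with Vha, which gave 32 of 17869 gene rows. Of these, 12 encode subunits of the V1 sector and 20 encode subunits or accessory proteins of the V0 sector, and together they cover 13 subunits. Another gene of the family, Vha44 (subunit C), had no row under the identifier that the gene name table gives for it and was not analysed here.

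The V-ATPase is a rotary pump that uses ATP to move protons into lysosomes, endosomes and other compartments. The peripheral V1 sector hydrolyses ATP, with alternating A and B subunits as its catalytic head and D, E, F, G and H as shaft, stalks and regulator. The V0 sector lies in the membrane, where a ring of c and c'' subunits turns against subunit a, with d and e beside it. In wing discs the acidity that the pump makes bears on endosomal traffic and on Notch and Wingless signalling, and the transcription factor Mitf is known in flies to drive its genes.

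Libraries were made from total RNA of L3 wing discs, 150 pooled per library, on day 7 after egg laying at 25 °C. The first group was nub>mRFP; ecd-RNAi, in which RNAi against ecd ran in the nubbin domain until collection, and the control group was nub>mRFP, so that both expressed the fluorescent protein mRFP in that domain. Each group had 4 biological replicates. Whole discs were used, so each library also held disc cells outside the nubbin domain. The gene ecd encodes a protein needed for pre-mRNA splicing, and the series asks how wing disc cells respond to a defective spliceosome.

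The libraries held roughly 31100000 to 37500000 reads in the ecd-RNAi group and 29500000 to 36500000 reads in the control group, an approximation from the value of 1 read in the normalized counts. Ribosomal RNA made up 26.6% to 35.2% of the signal in libraries labelled ecd-RNAi and 48.9% to 52.9% in control libraries. The targeted gene ecd was at 1348 ± 114 normalized counts in libraries labelled ecd-RNAi and 1028 ± 25.9 in control libraries (SD, n = 4 each), so no fall was seen. These whole-disc values cannot show whether ecd was lowered in the nubbin domain. Each direction below is therefore that of the libraries labelled ecd-RNAi. All 9 wing disc markers were detected in every library, with a summed level of 38519 to 39769 in the ecd-RNAi group and 45528 to 47657 in the control group. In the fit described below 7 of them were called lower and 2, wg and dpp, higher, beside 31.7% and 30.8% of all tested genes. Fat body markers summed to 646 to 5954 in the ecd-RNAi group and 1213 to 8571 in the control group, with ecd-RNAi replicate 4 and control replicate 2 the highest of their groups. Hemocyte markers summed to 1889 to 3548 in the ecd-RNAi group and 1789 to 2220.2 in the control group. Of these 7 markers 2 were called higher (Hml and NimC1) and 1 lower (crq), and Hml was highest in ecd-RNAi replicate 1 (1396). Tracheal markers summed to 12762 to 14842 in the ecd-RNAi group and 21062 to 22032 in the control group. Most of that sum came from pio (means of 5037 in the ecd-RNAi group and 10401 in the control group) and vvl (6055 and 8009). Lower means were also seen for btl (158 in the ecd-RNAi group and 191 in the control group) and trh (865 and 1641). Both lay far below pio and vvl, so the sum cannot be read as an amount of tracheal cells. Gasp went the other way (1854 and 1396). Muscle precursor markers summed to 3451 to 4078 in the ecd-RNAi group and 5328 to 5638 in the control group. Midgut and Malpighian tubule markers summed to 12.4 to 20.9 in the ecd-RNAi group and 12.8 to 18.3 in the control group. The part of these lists in the results was not tested. Since these are bulk samples, fewer cells of a type, less RNA per cell and expression of a marker in other cells cannot be told apart.

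Of the 32 genes, 17 averaged 10 or more normalized counts across all 8 libraries and were tested. In libraries labelled ecd-RNAi, 7 of them fell, 3 rose and 7 did not pass the threshold, a limma p under 0.05 after Benjamini-Hochberg adjustment over all tested genes (written below as limma adjusted p). The background was high, since 31.7% of all 9380 tested genes fell and 30.8% rose. The median log2 fold change was -0.07 for the tested V-ATPase genes and 0.00 for all genes, and the median size of the change, whatever its sign, was 0.17 and 0.31 on the same scale. The split of calls hung on the scaling: 11 fell and 1 rose after each library was recentred on its median, and 5 fell and 4 rose with quantile normalization. Under recentring the share of higher genes among all calls also moved, at 38.2% against 49.3% without it. Vha55, Vha13 and VhaM9.7-b were called lower, and VhaM9.7-c higher, in all 16 alternative settings of the fit, both rescalings included.

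**Figure D1:**
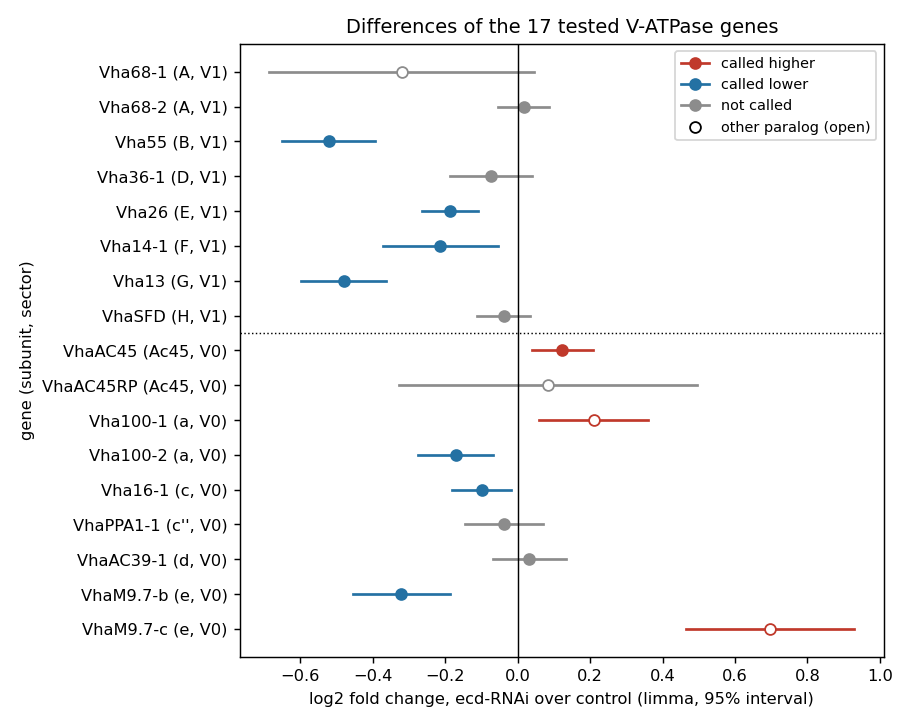
Log2 fold change (x axis, ecd-RNAi over control, limma) of each tested V-ATPase gene (y axis) with its 95% interval from the fit over 4 libraries a group; filled points are the paralog with the highest level of its subunit, open points the others. Vha55 (-0.52) and Vha13 (-0.48) lie farthest to the left and VhaM9.7-c (0.70) farthest to the right, and each kept its side with quantile normalization and recentring.

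The catalytic head of V1 changed unevenly. Vha55 (FBgn0005671; 3R, 12623762 to 12627829), the single gene for subunit B, stood at 2017, 1691, 1784 and 1665 normalized counts in ecd-RNAi replicates 1 to 4, against 2546, 2659, 2517 and 2526 in control replicates 1 to 4. Each library labelled ecd-RNAi lay below each control library, and the mean was lower by 30% (log2 fold change -0.52, SE 0.06, limma adjusted p = 2.43e-05). Its partner Vha68-2 (FBgn0263598; 2L, 12974322 to 12978607), the main gene for the ATP-hydrolysing subunit A, was at 3073, 2892, 3047 and 2998 in libraries labelled ecd-RNAi and at 2901, 2965, 3025 and 2983 in control libraries. The groups overlapped, and the difference was not past the threshold (log2 fold change 0.02, 95% interval -0.06 to 0.09, limma adjusted p = 0.678). With quantile normalization Vha68-2 was called higher (0.16, limma adjusted p = 0.00311), and after recentring its sign turned (-0.07, limma adjusted p = 0.0752). The ratio of Vha55 to Vha68-2 counts within a library, which no scaling by a constant can alter, was 0.656, 0.585, 0.586 and 0.555 in libraries labelled ecd-RNAi, against 0.878, 0.897, 0.832 and 0.847 in control libraries. This pair was chosen after its values were seen, and no test was made on the ratio.

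The stalk genes of V1 fell by different amounts. Vha13 (FBgn0283536; 3R, 19643018 to 19644386), subunit G of the peripheral stalk, was at 1029, 967, 985 and 892 normalized counts in ecd-RNAi replicates 1 to 4, against 1431, 1340, 1289 and 1342 in control replicates 1 to 4. Its groups stood well apart, with a log2 fold change of -0.48 (SE 0.05, limma adjusted p = 2.07e-05). Vha26 (FBgn0283535; 3R, 5591763 to 5595356), subunit E, which pairs with G in the same stalk, was at 2832, 2745, 2794 and 2786 in libraries labelled ecd-RNAi and at 3152, 3328, 3048 and 3176 in control libraries. It was lower in 4 of 4 libraries by a smaller amount (-0.19, SE 0.03, limma adjusted p = 0.000848), but quantile normalization removed the call (-0.04, limma adjusted p = 0.357).

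In the central shaft, Vha14-1 (FBgn0262512; 2R, 15679426 to 15680084), subunit F, was at 497, 461, 435 and 548 normalized counts in libraries labelled ecd-RNAi and at 570, 539, 563 and 572 in control libraries. The highest ecd-RNAi value, in replicate 4, lay above the lowest control value. Vha14-1 passed with all libraries (log2 fold change -0.21, SE 0.07, limma adjusted p = 0.0241). It missed the threshold when any 1 of 5 libraries was left out, namely control replicates 1, 3 and 4 and ecd-RNAi replicates 2 and 3 (limma adjusted p = 0.0534, 0.0515, 0.0557, 0.0604 and 0.0661 in that order).

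Vha36-1 (FBgn0022097; 2R, 15541435 to 15542498), subunit D of the same shaft, was at 952, 1002, 887 and 887 in libraries labelled ecd-RNAi and at 1012, 938.5, 974 and 996 in control libraries. VhaSFD (FBgn0027779; 2L, 16722883 to 16727826), subunit H, which in yeast keeps free V1 from using up ATP, was at 1499, 1510, 1498 and 1499.9 in libraries labelled ecd-RNAi and at 1578, 1516, 1504 and 1571 in control libraries. For both genes the groups overlapped and neither passed, with log2 fold changes of -0.07 (95% interval -0.19 to 0.04, limma adjusted p = 0.232) and -0.04 (-0.11 to 0.03, limma adjusted p = 0.333). Both were called lower after recentring (limma adjusted p = 0.0131 and 0.00485), and VhaSFD turned sign with quantile normalization (0.02).

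**Figure D2:**
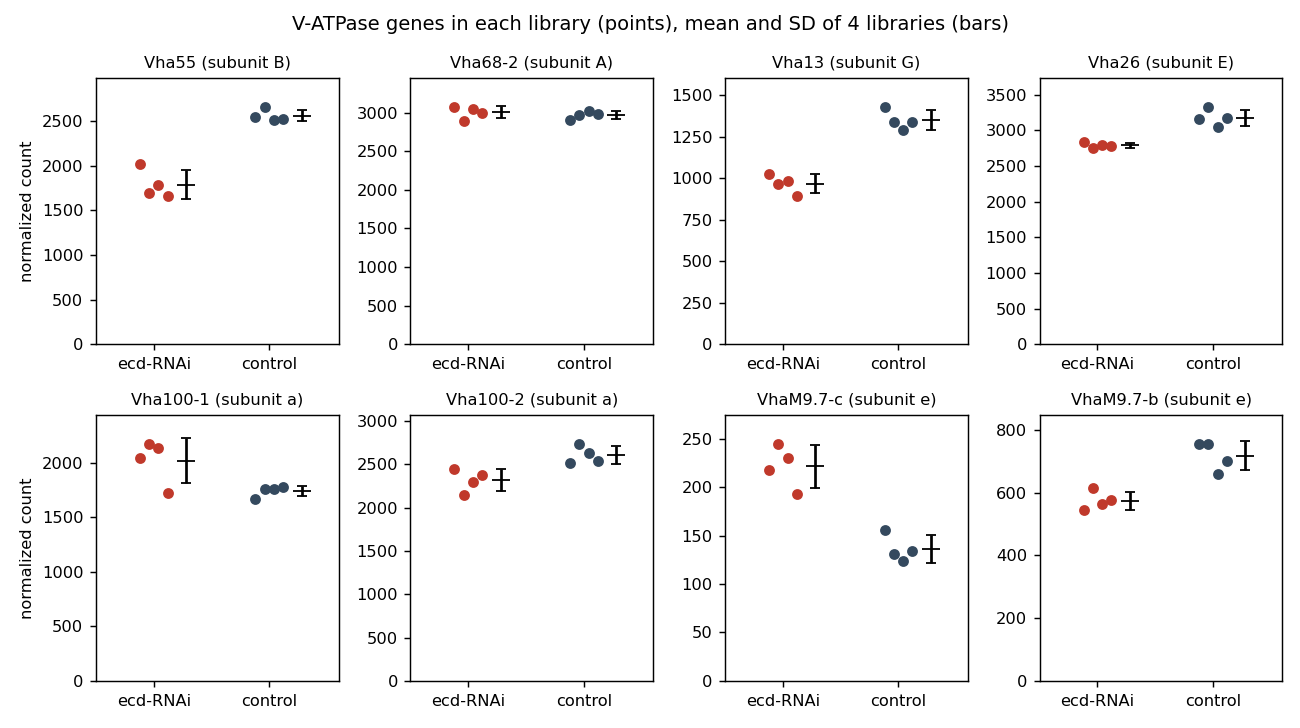
Normalized count (y axes, from 0) of 8 V-ATPase genes in each ecd-RNAi library (red points) and each control library (dark points), with bars for the mean and SD of 4 libraries. The groups do not overlap for Vha55, Vha13, Vha26, Vha100-2, VhaM9.7-c and VhaM9.7-b, and they overlap for Vha68-2 and Vha100-1.

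Among the V0 genes the membrane ring was nearly level between the groups. Vha16-1 (FBgn0262736; 2R, 6625242 to 6633090), which encodes the proton-carrying c subunit, was at 10700.5, 10736, 10399.9 and 10203 normalized counts in libraries labelled ecd-RNAi, against 11196, 11876, 11030.2 and 10961 in control libraries. The groups did not overlap, yet the difference was small and its call weak (log2 fold change -0.10, SE 0.04, limma adjusted p = 0.0357). Vha16-1 was no longer called when any 1 of 4 libraries was left out, namely control replicates 1 and 2 and ecd-RNAi replicates 3 and 4 (limma adjusted p = 0.0581, 0.0953, 0.0769 and 0.0893 in that order). It was also not called with no filter on low values (limma adjusted p = 0.0581) or with no mean trend (limma adjusted p = 0.0625), and its sign turned with quantile normalization (0.05). VhaPPA1-1 (FBgn0028662; 3R, 14902330 to 14904061), the c'' subunit of the ring, was at 1207, 1079.7, 1067 and 1139 in libraries labelled ecd-RNAi and at 1198, 1147, 1108 and 1157 in control libraries. It did not pass (-0.04, 95% interval -0.15 to 0.07, limma adjusted p = 0.517), though it was called lower after recentring (-0.13, limma adjusted p = 0.0295).

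VhaAC39-1 (FBgn0285910; X, 3880748 to 3882967), subunit d, which links the ring to the shaft, was at 1335, 1277, 1325 and 1227 normalized counts in libraries labelled ecd-RNAi and at 1332, 1216, 1216 and 1285 in control libraries. The groups overlapped (log2 fold change 0.03, 95% interval -0.07 to 0.13, limma adjusted p = 0.555; -0.06 after recentring).

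The 2 expressed genes for subunit a, which holds the proton channels, changed in opposite directions. Their mean levels lay closer together in libraries labelled ecd-RNAi than in control libraries. Vha100-1 (FBgn0028671; 3R, 29131193 to 29137980), known for its part at synapses, was at 2044, 2175, 2133 and 1723 normalized counts in ecd-RNAi replicates 1 to 4, against 1667, 1755, 1757 and 1777 in control replicates 1 to 4. Replicate 4 of the ecd-RNAi group fell among the control values, and the other 3 lay above them. With all libraries Vha100-1 rose (log2 fold change 0.21, SE 0.07, limma adjusted p = 0.0208). It missed the threshold after recentring (limma adjusted p = 0.155), and likewise on leaving out control replicate 1, ecd-RNAi replicate 2 or ecd-RNAi replicate 3 (limma adjusted p = 0.0556, 0.0564 and 0.0593 in that order). Neuron markers summed to 876 to 1018 in libraries labelled ecd-RNAi and 804 to 1029 in control libraries. Of these 5 markers 1 was called higher (Syt1) and 1 lower (brp), beside 30.8% and 31.7% of all tested genes. The part of neurons in the Vha100-1 difference was not tested. Vha100-2 (FBgn0028670; 3R, 18390323 to 18399169) was at 2439, 2147, 2299 and 2379 in libraries labelled ecd-RNAi and at 2513, 2737, 2635 and 2541 in control libraries. It was lower in 4 of 4 libraries (-0.17, SE 0.05, limma adjusted p = 0.00897) but was not called with quantile normalization (-0.04, limma adjusted p = 0.511).

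The 2 expressed genes for subunit e, a small hydrophobic protein of V0, went opposite ways. VhaM9.7-c (FBgn0028664; 3L, 4186018 to 4186865) was at 218, 245, 229.6 and 193 normalized counts in ecd-RNAi replicates 1 to 4, against 156, 131, 123 and 134 in control replicates 1 to 4. Each library labelled ecd-RNAi lay above each control library, and the mean was 1.63-fold higher (log2 fold change 0.70, SE 0.10, limma adjusted p = 0.000215). VhaM9.7-b (FBgn0028663; 3L, 21539862 to 21541215) was at 545, 614, 564 and 576 in libraries labelled ecd-RNAi and at 754, 757, 660.2 and 701 in control libraries. It was lower in 4 of 4 libraries (-0.32, SE 0.06, limma adjusted p = 0.000953).

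Accessory genes of V0 differed little. VhaAC45 (FBgn0262515; 2R, 9207561 to 9209774), whose mammalian counterpart helps to assemble and guide the pump, was at 1915, 1889, 1901 and 1896 normalized counts in libraries labelled ecd-RNAi and at 1773, 1839, 1659.7 and 1712 in control libraries. The groups stood apart by a small step (log2 fold change 0.12, SE 0.04, limma adjusted p = 0.0165), which missed the threshold without control replicate 3 (limma adjusted p = 0.0506) and after recentring (0.03, limma adjusted p = 0.499). Its paralog VhaAC45RP was at 36.5, 38.3, 54.0 and 40.0 in libraries labelled ecd-RNAi and at 35.1, 47.9, 38.0 and 37.2 in control libraries, with a wide interval around 0.08 (-0.33 to 0.50, limma adjusted p = 0.714). The sign of VhaAC45RP turned without ecd-RNAi replicate 3 (-0.04), after recentring (-0.01) and with quantile normalization (-0.23). ATP6AP2, an accessory protein that RefSeq also lists as VhaM8.9 and that the symbol rule leaves out, was at 1538 ± 20.3 in libraries labelled ecd-RNAi and 1570.4 ± 91.4 in control libraries (SD, n = 4 each; limma adjusted p = 0.594).

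Set side by side by sector, 4 of 8 tested V1 genes fell and 0 rose, while 3 of 9 tested V0 genes fell and 3 rose. Their median log2 fold changes were -0.20 and 0.03, beside 0.00 for all genes. Of all tested genes 31.7% fell and 30.8% rose, beside 50% and 0% for V1 and 33.3% and 33.3% for V0. Recentring gave 7 V1 genes lower, with 4 V0 genes lower and 1 higher; quantile normalization gave 4 V1 genes lower and 1 higher, with 1 V0 gene lower and 3 higher. Groups that did not overlap were seen for 4 V1 genes, each lower in libraries labelled ecd-RNAi, and for 5 V0 genes, 3 lower and 2 higher; over all tested genes 29.2% had every ecd-RNAi value below every control value and 28.0% had them above. The mean log2 level of the 7 main V1 genes minus that of the 6 main V0 genes was -0.38, -0.41, -0.42 and -0.41 in ecd-RNAi replicates 1 to 4, against -0.28, -0.32, -0.24 and -0.25 in control replicates 1 to 4. This difference was lower in each library labelled ecd-RNAi than in any control library. Vha55 and Vha13, the main V1 genes with the largest falls, were then left out after their values were seen. Without these 2 genes it was -0.38, -0.37, -0.40 and -0.35 in libraries labelled ecd-RNAi. In control libraries it was -0.37, -0.41, -0.32 and -0.32, and the groups overlapped. No V0 gene was left out, and taking out the largest V1 falls narrows such a gap in any case. The overlap therefore cannot show that the difference rested on these genes, and no test was made on either version.

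Levels between genes were compared as normalized counts per kb of the annotated canonical transcript. In control libraries Vha16-1, the c subunit of which a pump holds many copies, was highest at 3779 ± 140.4 per kb (SD, n = 4). Next came Vha13 at 1432 ± 62.5, Vha68-2 at 1173 ± 20.5 and Vha26 at 1085 ± 39.6, each with a range clear of its neighbours. From Vha55 at 941 ± 24.1 through Vha36-1, VhaAC45, Vha100-2 and VhaPPA1-1 to Vha14-1 at 851 ± 23.5, each gene's range overlapped that of the next. VhaAC39-1 at 704 ± 31.6, VhaSFD at 649 ± 15.9 and VhaM9.7-b at 591 ± 38.1 closed the order.

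The order in libraries labelled ecd-RNAi again began with Vha16-1 at 3526 ± 85.2 per kb (SD, n = 4). There Vha68-2 stood at place 2 with 1186 ± 31.5 and Vha13 at place 3 with 1027 ± 60.7. Vha55 took place 11 of 13 at 657 ± 58.8, with a range that overlapped both neighbours, against place 5 in control libraries. The places in both groups, that of Vha55 included, depend on the transcript length used. Annotated transcripts of Vha55 run from 2048 to 2722 bases and those of Vha26 from 2171 to 2926. Those of Vha13 run from 703 to 943 bases, and those of VhaM9.7-b from 699 to 1216.

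**Figure D3:**
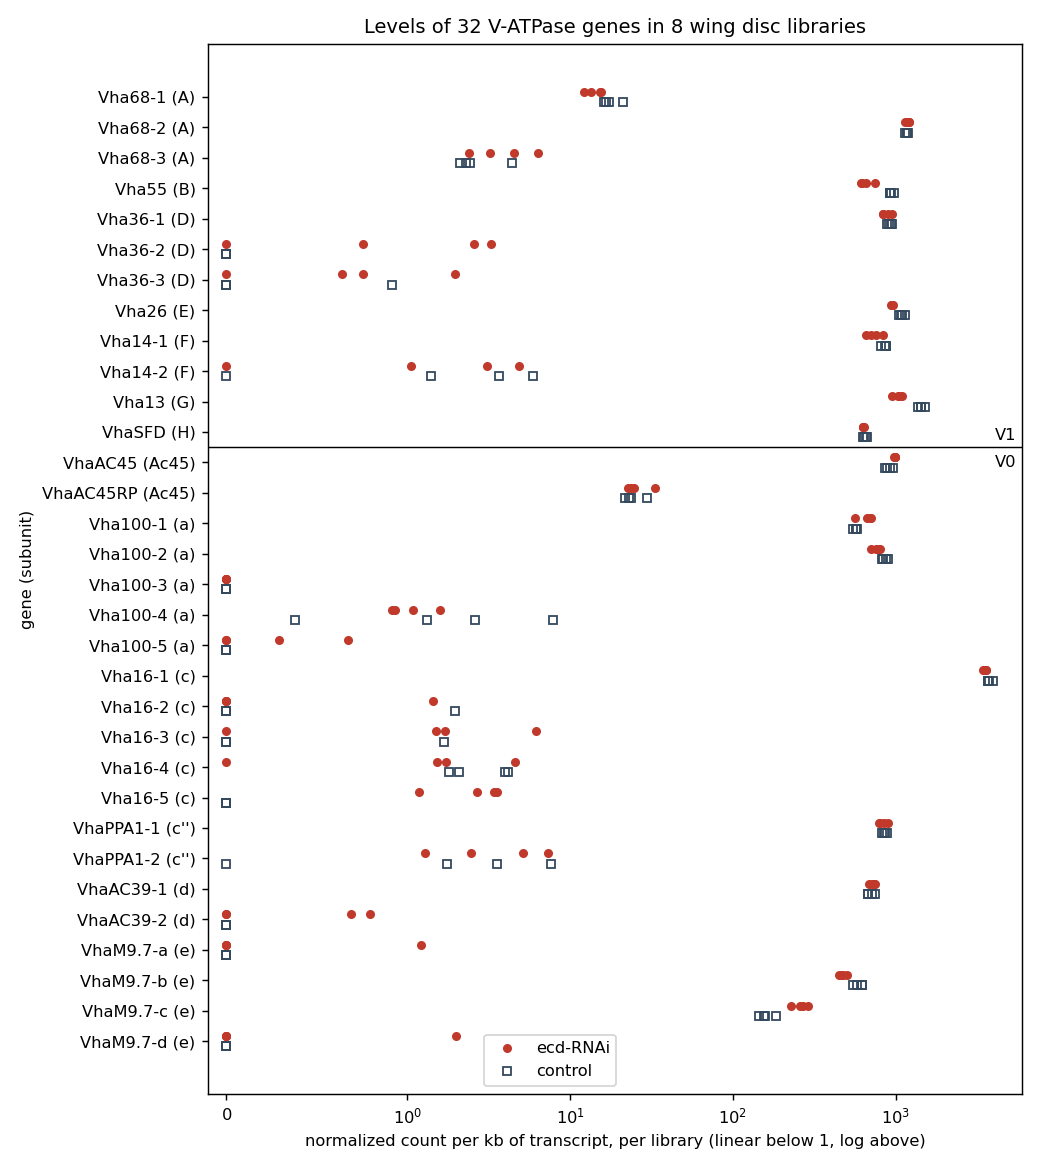
Normalized count per kb of transcript (x axis, linear below 1 and logarithmic above) of each of the 32 V-ATPase genes (y axis, with subunit) in the ecd-RNAi libraries (red circles) and the control libraries (open squares), V1 above the line and V0 below it. The main gene of each subunit is at 448 per kb or more in every library, Vha100-1 and VhaM9.7-c are the next highest of their subunits, and Vha68-1 and VhaAC45RP lie apart from 15 paralogs with lower levels.

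For each subunit the main gene was taken as the one with the highest mean per kb over the 8 libraries, and taking the shortest annotated transcript instead gave the same 13 genes. Of these main genes 7 fell, 1 rose (VhaAC45) and 5 did not pass, beside background rates of 31.7% and 30.8%. Recentring gave 10 lower and 0 higher, quantile normalization 4 lower and 2 higher, and without control replicate 3 there were 0 higher. Of 19 other paralogs only 4 were abundant enough to test, of which 2 rose (Vha100-1 and VhaM9.7-c) and 0 fell. The count of 2 became 1, VhaM9.7-c alone, after recentring, and on leaving out control 1, ecd-RNAi 2 or ecd-RNAi 3.

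Within subunits A, a, e and Ac45 a second paralog was measured well enough to set it against the main gene of the same library. VhaM9.7-c made up 36.4%, 36.3%, 36.9% and 32.5% of the per-kb signal of the 4 subunit e genes in ecd-RNAi replicates 1 to 4, against 22.9%, 19.9%, 21.1% and 21.5% in control replicates 1 to 4. The groups stood far apart, and the log2 ratio of VhaM9.7-c to VhaM9.7-b was higher by 1.02 in libraries labelled ecd-RNAi. The size of each share depends on the transcript length used, which for VhaM9.7-b runs from 699 to 1216 bases. The log2 ratio was taken on counts, without a length. For subunit a, Vha100-1 held 45.4%, 50.1%, 47.9% and 41.8% of the per-kb signal in libraries labelled ecd-RNAi, against 39.7%, 38.9%, 39.8% and 40.8% in control libraries. Each ecd-RNAi share lay above each control share, replicate 4 by the least, and the log2 ratio of Vha100-1 to Vha100-2 was higher by 0.38.

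Vha68-1, a second gene for subunit A, was at 35.2, 39.7, 31.9 and 40.5 normalized counts in libraries labelled ecd-RNAi and at 54.8, 43.2, 42.0 and 45.1 in control libraries. It was not called on its own (log2 fold change -0.32, 95% interval -0.69 to 0.05, limma adjusted p = 0.114), although its groups did not overlap, and it was called lower with recentring, quantile normalization or no mean trend (limma adjusted p = 0.0476, 0.00671 and 0.0336 in that order). Its log2 ratio to Vha68-2 was lower by 0.34 (difference -0.34). It held 1.17% ± 0.15 of the subunit A signal in libraries labelled ecd-RNAi and 1.49% ± 0.21 in control libraries (SD, n = 4 each).

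These 3 differences in ratio each had p = 0.0286 in an exact permutation test, two-sided, the smallest p that 4 against 4 libraries allow, and 0.0381 after Benjamini-Hochberg adjustment over the 4 pairs compared. For VhaAC45RP and VhaAC45 the groups overlapped (difference -0.04, exact permutation p = 0.80, adjusted 0.80). The pairs were chosen with the members' values known, so the p-values cannot be read as an independent test of these differences.

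**Figure D4:**
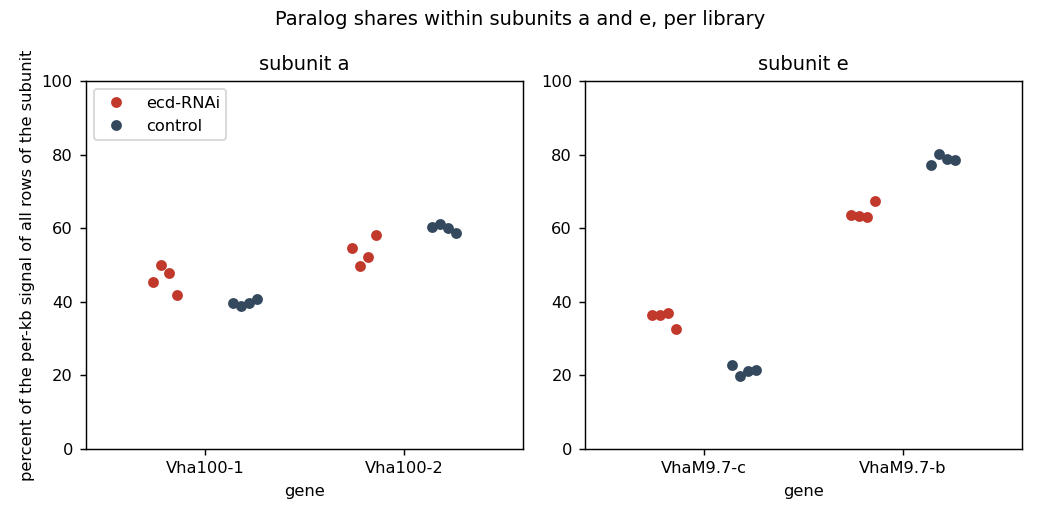
Percent of the per-kb signal of all rows of a subunit (y axis, 0 to 100) held by the 2 main genes of subunit a (left) and subunit e (right) in each ecd-RNAi library (red) and control library (dark). Vha100-1 and VhaM9.7-c hold a larger share in each of the 4 ecd-RNAi libraries than in any control library, and Vha100-2 and VhaM9.7-b a smaller one.

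The remaining 15 paralogs were near or under the limit of detection. The most that a value of 0 can hide, taken as 3 reads, came to a mean of 2.64 normalized counts for libraries labelled ecd-RNAi and 3.42 for control libraries, and for 12 of the 15 both group means lay under these limits. Vha100-3 was at 0 in all 8 libraries. Another 6 genes were at 0 in the 4 control libraries and above 0 in at least 1 library labelled ecd-RNAi: Vha16-5 (0.86, 1.96, 2.48 and 2.57), Vha36-2 (0, 0.98, 3.31 and 4.25), Vha100-5, VhaAC39-2, VhaM9.7-a and VhaM9.7-d. Such values stand for a few reads at most, so no fold is given. The share of all low gene rows with this pattern was not counted, so it cannot be called particular to these paralogs. A read stood for 0.83 to 0.98 normalized counts in libraries labelled ecd-RNAi and 1.04 to 1.20 in control libraries. With no filter on low values the median log2 fold change of all genes was 0.09, against 0.00 with the filter.

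The groups overlapped for 7 of 9 testis markers and did not for 2, Mst87F and dj, which were too low to test in the fit. Both were higher in libraries labelled ecd-RNAi, and 28.0% of all tested genes had every ecd-RNAi value above every control value. The spermatid gene Mst87F was at 13.9, 14.8, 24.2 and 17.4 in libraries labelled ecd-RNAi and at 1.02, 1.19, 0 and 4.50 in control libraries, and dj at 11.3, 9.82, 17.5 and 10.3 in libraries labelled ecd-RNAi, against 3.09, 2.39, 2.38 and 1.13 in control libraries. By the same measure as for the paralogs, 4 of the 9 markers (can, sa, aly and bam) were under the limit of detection, and sa was at 0 in all 8 libraries. The marker vas was at 6.08, 5.88, 6.65 and 10.2 in libraries labelled ecd-RNAi and at 20.7, 0, 0 and 3.38 in control libraries, so its groups overlapped. The list summed to 1776 to 2650 in libraries labelled ecd-RNAi and 1606 to 1928 in control libraries, nearly all of it from Pif1A and mia. Pif1A was called higher (log2 fold change 0.36, limma adjusted p = 0.0282), and mia was not called (-0.06, limma adjusted p = 0.562). Whether these signals are linked to those of the low Vha paralogs was not tested.

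Just under the level needed for a test, Vha68-3 was at 15.6, 7.85, 5.82 and 11.0 in libraries labelled ecd-RNAi and at 5.17, 10.8, 5.95 and 5.64 in control libraries, a mean of 8.49 over all 8. The lowest mean among the tested genes was 40.9, for VhaAC45RP, so no V-ATPase gene lay close above that level. Vha100-4 was at 4.34, 2.94, 2.49 and 2.55 in libraries labelled ecd-RNAi and at 1.03, 3.60, 7.14 and 21.4 in control libraries. Control replicate 4 was the highest of the 8, and the groups overlapped.

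Several low paralogs sit next to an abundant one on the chromosome. Vha68-3 begins 178 bases after Vha68-2 on the same strand of 2L, Vha100-4 lies 517 bases from Vha100-2 and VhaPPA1-2 lies 2052 bases from VhaPPA1-1, both on 3R. Vha100-2 held 53.6% ± 3.57 of the subunit a signal in libraries labelled ecd-RNAi and 60.0% ± 0.98 in control libraries (SD, n = 4 each). Vha100-4 held 0.08% ± 0.02 in libraries labelled ecd-RNAi and 0.21% ± 0.24 in control libraries. Of the 15 untested genes 6 have no intron in their canonical transcript, as have 3 of the 17 tested ones (Vha14-1, Vha36-1 and VhaM9.7-c).

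Genes that work with the pump were read beside it, as counts and medians only. In a list of 6 assembly and regulation genes, 5 were tested, 2 fell and 0 rose, where 31.7% and 30.8% of all tested genes did, and the median log2 fold change was -0.09. Rbcn-3A, a scaffold that in yeast helps V1 to rejoin V0, was at 4717, 4360.5, 4049.8 and 4278 normalized counts in libraries labelled ecd-RNAi, against 5087, 5304, 5422 and 5272 in control libraries. It was lower in 4 of 4 libraries (-0.28, SE 0.05, limma adjusted p = 0.000442). The other called gene was mtd (log2 fold change -0.15, limma adjusted p = 0.0114), and Rbcn-3B, the partner of Rbcn-3A, was listed at 0 in all 8 libraries. Whether its RNA was absent or its reads were not assigned to this row was not tested. Mitf, the activator of V-ATPase genes, was at 3066, 3408, 3373 and 3286 in libraries labelled ecd-RNAi and at 3156, 3185, 3169 and 3249.55 in control libraries. Its groups overlapped, with a log2 fold change of 0.04 (SE 0.04, limma adjusted p = 0.380).

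The lysosomal protein list, with hydrolases and membrane proteins of the compartment that the pump acidifies, had 26 of 33 genes tested, of which 6 rose (23.1%) and 4 fell (15.4%), both below the 30.8% and 31.7% of all tested genes. Their median log2 fold change was 0.06. Recentring gave 4 higher and 9 lower. Naglu, a heparan sulfate hydrolase, was 1.97-fold higher at 195 ± 9.77 normalized counts in libraries labelled ecd-RNAi and 99.0 ± 8.94 in control libraries (SD, n = 4 each; limma adjusted p = 8.78e-06). Cln7, a lysosomal membrane transporter, was lower at 188 ± 30.9 in libraries labelled ecd-RNAi and 629 ± 61.3 in control libraries (log2 fold change -1.74, SE 0.12, limma adjusted p = 9.06e-07). The beta-galactosidase gene Gal was also lower (-1.15, SE 0.19, limma adjusted p = 0.000485), but 54.0% of its exonic bases overlap an antisense RNA gene, so its value is uncertain.

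At the lysosomal surface the pump works with the Rag and Ragulator proteins that recruit the growth kinase mTor. Of 13 tested genes of this list 5 rose (38.5%, against 30.8% of all tested genes) and 2 fell (15.4%, against 31.7%), with a median log2 fold change of 0.04. The higher count was 2 with either rescaling, 3 with no filter or no mean trend, and 3 on leaving out control 1 or 2, or ecd-RNAi 1, 3 or 4. Lamtor5, a Ragulator member, was at 388, 373, 371 and 357 normalized counts in libraries labelled ecd-RNAi and at 239, 248, 208 and 236 in control libraries (0.68, SE 0.07, limma adjusted p = 1.63e-05). The kinase gene mTor was lower, at 2951 ± 84.5 in libraries labelled ecd-RNAi and 4290.5 ± 123.9 in control libraries (SD, n = 4 each; -0.54, SE 0.03, limma adjusted p = 4.72e-07). Its binding partner raptor was lower too (-0.34, SE 0.05, limma adjusted p = 0.000105), with 23.5% of its exonic bases shared with a gene on the same strand, Mipp2.

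The mitochondrial ATP synthase, the related rotary enzyme that makes ATP, moved one way. Of 14 tested genes 13 fell (92.9%, against 31.7% of all tested genes) and 0 rose, with a median log2 fold change of -0.41, and 12 to 14 fell in each alternative setting, with 2 higher when no filter was used. ATPsynF was at 1561, 1521, 1377 and 1318 normalized counts in libraries labelled ecd-RNAi, against 2714, 2486, 2507 and 2579 in control libraries (-0.83, SE 0.06, limma adjusted p = 7.77e-07). ATPsynepsilonL (-0.63, limma adjusted p = 0.0243) and ATPsynCF6 (-0.61, limma adjusted p = 1.68e-06) followed in size. The largest fall among V-ATPase genes, -0.52 for Vha55, lay within the range of the ATP synthase genes; no test was made between the lists.

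**Figure D5:**
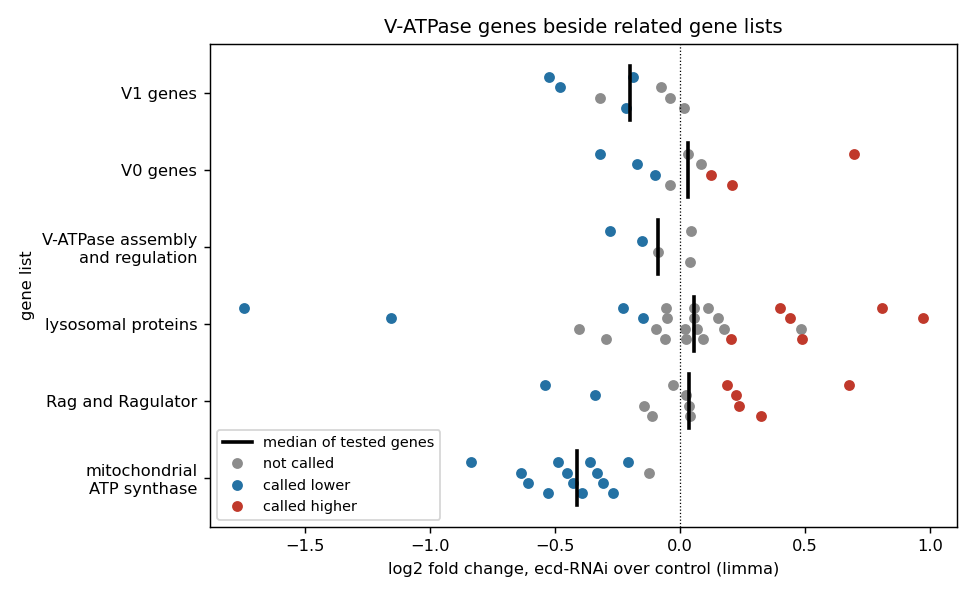
Log2 fold change (x axis, ecd-RNAi over control, limma) of each tested gene, in rows for V1, V0 and related lists (y axis), coloured by call, with a bar at the median of each row. The ATP synthase genes lie left of 0 (median -0.41), the V1 genes mostly so (median -0.20), and the V0 genes on both sides (median 0.03); the V1 and V0 splits shift with rescaling as given in the text.

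Of the 32 V-ATPase genes, 23 had an adjusted p in the authors' deposited table, of which 7 fell and 3 rose at 0.05, against background rates of 23.4% and 24.1% among gene rows with one. These were the same 10 genes, in the same directions, as in the limma fit. The authors' deposited table gives a log2 fold change of 0.70 for VhaM9.7-c and -0.52 for Vha55.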

How the data were processed

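The authors deposited normalized counts, a non-negative signal per gene and library, and a table of their own comparison. The authors' deposited table holds log2 fold changes with standard errors, p-values and a test statistic, treated as a score, per the file headers. The submitters' processing notes name FastQC, cutadapt 3.5, kallisto 0.46.1, DESeq2 1.34.0 and BDGP6; for their settings the sources used here give nothing. Reads of near-identical paralogs and of overlapping genes may be split by estimation, so values of the low paralogs are uncertain.

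Gene rows averaging 10 or more normalized counts were fitted on log2(normalized count + 1) with limma 3.58.1 in R 4.3.3 (mean trend, two-sided, no covariate, all 8 libraries), and p-values were adjusted by Benjamini-Hochberg over all tested genes. Fold changes on this scale understate the change of low genes. The fit was tested on simulated data in which the planted changes were larger than those of most tested V-ATPase genes. Many of the smaller planted changes were missed, and few of the larger. Its power for smaller changes was not tested. Log2 ratios of paralogs were tested with exact permutation (scipy 1.17.1). Symbols came from a gene name table, RefSeq synonyms and coordinates, lengths and introns from the Ensembl annotation of BDGP6 (1-based). The value of 1 read was taken as the most frequent value above 0 in a library; the limit of detection, 3 reads, covers counting error only. Rows for transposable elements and rows with transcript identifiers were left out.

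Each V-ATPase gene is accounted for; of each related list the 3 called genes with the largest change are named, with Mitf added. The members and lists were chosen with earlier results of these data known. Alternatives were 2 other pseudocounts, 2 other filters, 2 rescalings, no mean trend, the replicate number as a block, and leaving out each library.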

Additional observations from a re-analysis of the deposited data

Results flagged for a closer look

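Vha68-3 in control replicate 2 was at 10.8 normalized counts, while the other 3 control libraries lay between 5.17 and 5.95. The gap to the nearest of them was 0.862 of the range of the group, above the 95% critical value of Dixon's test for 4 samples. Among 66 groups of 4 values examined in this way this was the 1 that passed, and chance flags about 1 in 20.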

How the results depend on the processing

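Counts are given as in libraries labelled ecd-RNAi relative to control. After recentring on the median, 1 V-ATPase gene was higher and 11 lower (V1: 7 lower; V0: 1 higher; main genes: 0 higher; other paralogs: 1 higher and 1 lower), and 9 lysosomal genes were lower with 2 Rag and Ragulator genes higher. With quantile normalization 1 V1 gene, 2 main genes, 2 Rag and Ragulator genes and 1 assembly gene were higher, and 1 V0 gene, 4 main genes, 1 other paralog and 4 Rag and Ragulator genes lower. With no filter on low values 5 V-ATPase genes, 1 V1 gene, 4 other paralogs, 3 Rag and Ragulator genes and 2 ATP synthase genes were higher; with no mean trend 1 other paralog was lower and 3 Rag and Ragulator genes higher. The cause of these shifts was not tested.

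Leaving out 1 library gave 2 to 3 V-ATPase genes higher and 5 to 7 lower, 0 to 1 main genes and 1 to 2 other paralogs higher, and 3 to 4 Rag and Ragulator genes higher. The log2 ratio differences ranged from 0.98 to 1.08 for VhaM9.7-c, from 0.31 to 0.47 for Vha100-1, from -0.39 to -0.24 for Vha68-1 and from -0.16 to 0.03 for VhaAC45RP; with 3 against 4 libraries the exact test cannot go below 0.0571. Log2 fold changes turned sign for VhaSFD (0.0166), VhaAC45RP (-0.232) and Vha16-1 (0.0536) with quantile normalization, and for VhaAC45RP (-0.00751), Vha68-2 (-0.0749) and VhaAC39-1 (-0.0588) after recentring. VhaAC45RP ranged from -0.0383, without ecd-RNAi replicate 3, to 0.177 on leaving out 1 library.

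Same-numbered libraries did not deviate together (r = 0.05, -0.05, -0.04 and -0.02 for numbers 1 to 4). With the replicate number as a block, 3 V-ATPase genes were higher and 7 lower, as without the block.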
